A study of Mus musculus with 8 samples.

Results

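Heparan sulfate and chondroitin sulfate proteoglycans were followed on expression arrays of forebrain tissue, cortex together with striatum, from BTBR/R and B6 mice. The set held 42 genes, 30 for heparan sulfate (HS) and 12 for chondroitin sulfate (CS), and was chosen by name from the core proteins that carry these chains and the enzymes that build, edit or remove them. On the arrays, 83 of 56605 probes bore the name of one of the 42 genes. Each gene had between 1 and 4 probes, and 17 of them had only 1. The arrays carried 37074 gene names in all. BTBR mice have been described as lacking HS in niches of the brain, which was the reason for looking at these genes. The arrays measured RNA in cortex with striatum and not the HS chains themselves.

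An HS or CS proteoglycan is a core protein with long sugar chains on it. The chains are started on a common linker, lengthened by alternating sugar transferases, and then sulfated at chosen positions, so that the pattern of sulfates sets which growth factors, guidance cues and matrix proteins can bind. In brain, HS is carried mainly by glypicans and syndecans on cell surfaces and by agrin and perlecan in basement membranes, whereas the CS cores aggrecan, brevican, neurocan and versican are held on hyaluronan by link proteins and form the matrix around neurons, including perineuronal nets.

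Tissue was taken from 4 male mice of the inbred strain BTBRTF/ArtRbrc (BTBR/R) and 4 male mice of C57BL/6J (B6), with 1 mouse on each array. BTBR/R is a subline of BTBR, and it carries spontaneous alleles of brachyury (T), of Itpr3 (tufted) and of the agouti locus (black and tan), as its sister subline does. No treatment is given for either strain. The mice were aged 4 months, but for BTBR/R replicate 1 at 6 months. The strains came from different suppliers, and the B6 mice filled one column of the single slide and the BTBR/R mice the other. The B6 mice were housed at Tokyo University of Science, and the BTBR/R mice there and at The University of Tokyo. Strain, supplier, position on the slide and any effect of housing therefore cannot be told apart. The tissue is a mixture of both regions and of all their cell types, in which fewer cells of a type and less RNA per cell cannot be told apart.

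Signals are given as scaled signals, which are the log2 processed signal minus the log2 75th percentile of the same array (535 to 589 over the 8 arrays). Differences are BTBR/R minus B6 on this log2 scale, and 1 unit is a 2-fold change. A probe passed the test when its p from limma, with Benjamini-Hochberg adjustment over all 56605 probes, was below 0.05, and it was called when the change was also at least 2-fold. Detection means that the scanning software flagged a probe as well above background. It covered 64.5% to 66.8% of the probes in B6 mice and 53.5% to 57.2% in BTBR/R mice, whose arrays also had the higher detection limit, with detected signals starting at 36.1 to 47.1, against 14.5 to 17.8 in B6 mice.

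Each gene was represented by its brightest probe among those detected on all 8 arrays, and 39 of the 42 genes had such a probe. Of these 39 genes, 4 were higher and 3 were lower in BTBR/R mice, which is 17.9% against a background of 28.4% among the 18857 gene names with a representative probe of this kind (13.9% higher and 14.4% lower). The higher genes were Extl1, Chsy1, Hapln4 and Ptprz1, and the lower genes were Sdc4, Hs3st1 and Sdc2. Only Extl1 and Sdc4 were also called, against a background of 2.23%. The signals of the strains did not overlap for 10 of the 39 genes, where 34.9% of all such gene names did not overlap. The median difference over the 39 genes was -0.02, with a range from -1.004 to 1.22, and the median over all gene names was 0.0028. The median size of the difference, regardless of sign, was 0.113 for these genes and 0.120 for all gene names. For 34 of the 39 genes the 95% confidence interval of the difference lay within a 1.5-fold change in either direction.

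**Figure D1:**
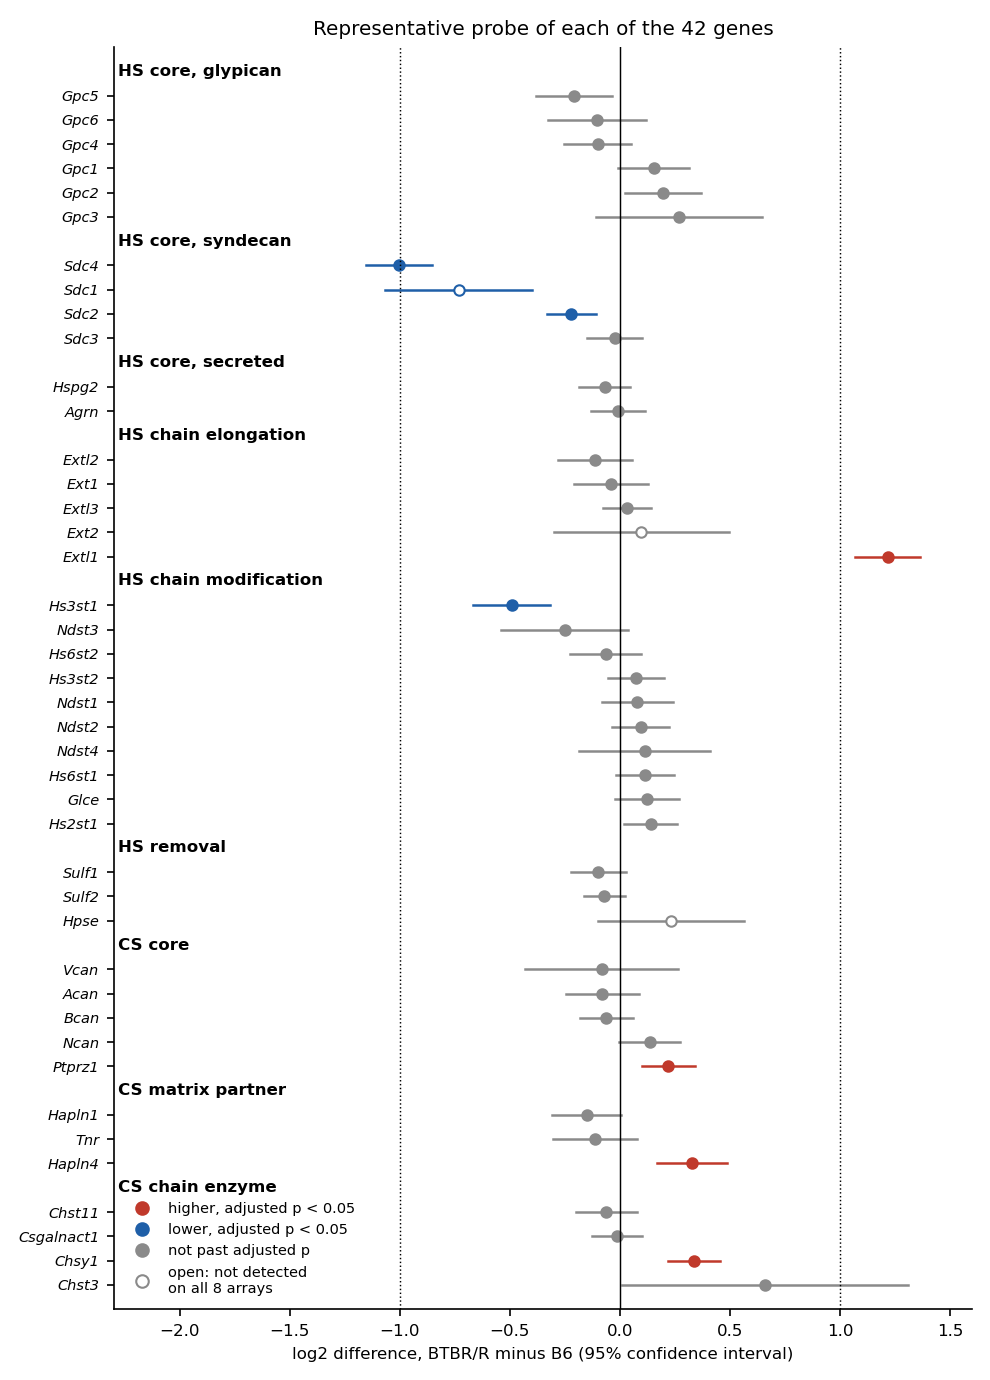
Log2 difference (BTBR/R minus B6, n = 4 mice per strain) of the representative probe of each of the 42 genes, by role, with its 95% confidence interval from limma; dotted lines mark a 2-fold change. Sdc4 at -1.004 and Extl1 at 1.22 lie apart from the other genes with a filled point, and the 3 open points (Sdc1, Ext2 and Hpse) were not detected on all 8 arrays.

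The probes of the 3 genes with the largest differences that passed on detected probes, Sdc4, Extl1 and Hs3st1, are given by the first 30 of their 60 bases, since the results below turn on which transcript each of them reads. Positions are of the whole probe in the mm9 mouse genome build, as annotated with the arrays, and where in the gene each probe lies (coding part or untranslated part) was not determined here.
Sdc4, chr2:164250116-164250175, minus strand: tggaagtcattcctcggttgcactagccac
Extl1 brightest probe, chr4:133912503-133912562, minus strand: tgaatggagttaaagactacggataaaatg
Extl1 neighbouring probe, chr4:133912719-133912778, minus strand: ttcacagagatccacctgacttttgcttcc
Extl1 clone probe, chr4:133929589-133929648, plus strand: atccttcgcatcctaacttggaccaggttc
Hs3st1 brightest probe, chr5:40005207-40005266, minus strand: aacctgcctccaatccaaaatagctctttg
Hs3st1 neighbouring probe, chr5:40005327-40005386, minus strand: ttgttaacattgtgtatatgtctctataat

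Among the core proteins that carry HS, 3 of the 4 syndecans had a probe detected on all 8 arrays. Of these 3 genes 2 fell, which is 66.7% against 28.4% of all gene names that passed (14.4% lower). Syndecans span the membrane, and syndecan 4 (Sdc4) is known as a coreceptor at focal adhesions. The scaled signal of Sdc4 was 1.03, 1.02, 0.96 and 0.83 in B6 replicates 1 to 4 and -0.01, 0.04, -0.10 and -0.11 in BTBR/R replicates 1 to 4. Every BTBR/R mouse lay below every B6 mouse. Sdc4 was 2.01-fold lower in BTBR/R mice (difference -1.004, SE 0.06, 95% confidence interval -1.16 to -0.85, limma adjusted p = 2.76e-05). This value rests on the only Sdc4 probe, and whether the strains differ in sequence under it was not tested. The change lay on the 2-fold threshold, and under 6 of 20 alternatives it passed the adjusted p but not the fold. Among these were the fits without B6 replicate 1 (-0.98), without B6 replicate 2 (-0.98), without BTBR/R replicate 3 (-0.99) and without BTBR/R replicate 4 (-0.98).

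Syndecan 2 (Sdc2), which is known for its part in dendritic spines, had scaled signals of 1.39, 1.44, 1.32 and 1.41 in B6 mice and 1.23, 1.12, 1.17 and 1.17 in BTBR/R mice. The strains did not overlap, and Sdc2 was lower in BTBR/R mice by a small amount (difference -0.22, SE 0.05, limma adjusted p = 0.00862). Scaling by spike-in probes, which moved the median of all detected probes by 0.11, left Sdc2 short of the test (difference -0.11, adjusted p = 0.297), and so did a block for replicate number (adjusted p = 0.0535). Syndecan 3 (Sdc3), an axonal syndecan, differed by -0.02 with a 95% confidence interval from -0.15 to 0.10.

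Syndecan 1 (Sdc1), best known from epithelia and plasma cells, was not well measured. Its brightest probe was well above background on 2 B6 arrays and on no BTBR/R array, with scaled signals of -5.46 to -4.77 in B6 mice and -5.92 to -5.71 in BTBR/R mice. The probe passed the test (difference -0.73, limma adjusted p = 0.00512), but no fold is given because the BTBR/R signals were below detection and the bound on the fold was not above 1. The size of the difference depended on the processing, at -0.05 with normexp background correction (limma adjusted p = 0.455) and -1.18 with quantile normalization (adjusted p = 0.00543), where the probe was called.

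The 6 glypicans, which are tied to the membrane by a lipid anchor, were all measured on all 8 arrays, and none passed the test as set, though 3 of them did under some alternatives. Their differences ran from -0.21 for Gpc5 to 0.27 for Gpc3. Gpc5 had the lowest p of the group, with scaled signals of -0.20, -0.25, -0.34 and -0.27 in B6 mice and -0.29, -0.51, -0.51 and -0.59 in BTBR/R mice. The strains overlapped only through BTBR/R replicate 1 (difference -0.21, SE 0.07, limma adjusted p = 0.0598). Gpc5 passed without that mouse (-0.27, adjusted p = 0.0088), with median scaling (adjusted p = 0.0248) and with limma's trend and robust options (adjusted p = 0.0356), but was at -0.10 with spike-in scaling (adjusted p = 0.427). Gpc2 was the one glypican whose strains did not overlap, from -1.70 to -1.51 in B6 mice and from -1.49 to -1.23 in BTBR/R mice (adjusted p = 0.0713). It passed with spike-in scaling (adjusted p = 0.0126) and with normexp background correction (adjusted p = 0.0479). Gpc1, Gpc4 and Gpc6 differed by 0.15, -0.10 and -0.11, and Gpc1 passed with spike-in scaling (limma adjusted p = 0.00698).

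The secreted HS cores did not pass either. Agrin (Agrn), which organizes synapses and lies in vascular basement membranes, differed by -0.01 with a 95% confidence interval from -0.13 to 0.12. Perlecan (Hspg2), the other basement membrane core, had scaled signals of -1.19, -1.09, -1.12 and -1.25 in B6 mice and -1.21, -1.23, -1.23 and -1.24 in BTBR/R mice. The BTBR/R signals lay within the B6 range for all 4 mice (difference -0.07, SE 0.05, limma adjusted p = 0.304).

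**Figure D2:**
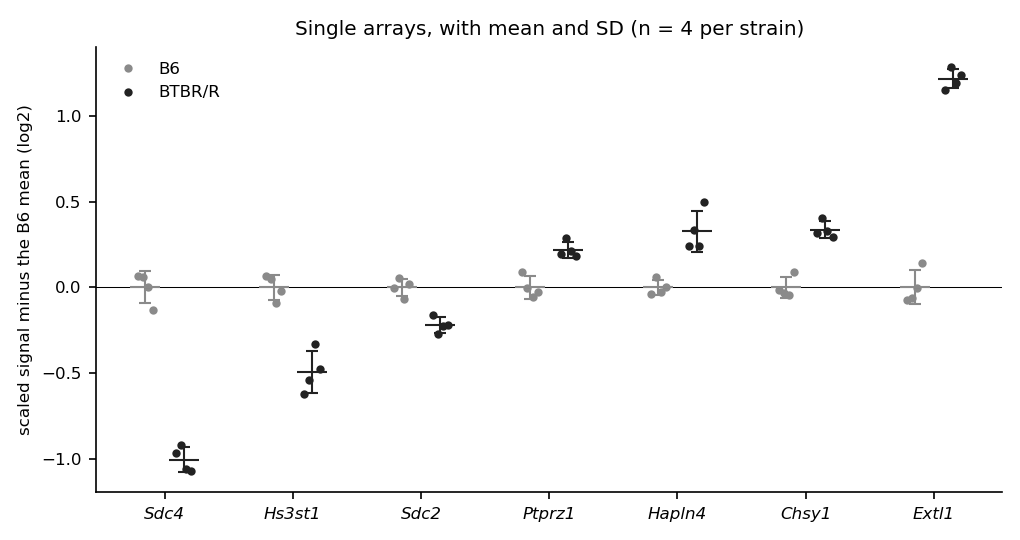
Scaled signal of every array, minus the B6 mean of the gene (log2), for the 7 genes that passed the test with a representative probe detected on all 8 arrays; bars are the mean and SD of 4 mice. In all 7 genes the BTBR/R points lie outside the B6 points, and only in Sdc4 and Extl1 is the distance near or above 1.

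Of the 5 genes that lengthen the HS chain, 4 had a probe detected on all 8 arrays. Of these Extl1 alone passed, which is 25.0% against 28.4% of all gene names. Extl1 is an exostosin-like glycosyltransferase. Its brightest probe had scaled signals of 0.31, 0.33, 0.38 and 0.53 in B6 mice and 1.54, 1.67, 1.58 and 1.63 in BTBR/R mice. The strains stood well apart, and the probe was 2.32-fold higher in BTBR/R mice (difference 1.22, SE 0.06, 95% confidence interval 1.07 to 1.37, limma adjusted p = 2.55e-05).

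The other Extl1 probes did not give the same value. The neighbouring probe on the same strand was higher in BTBR/R mice by 0.71 (SE 0.06, limma adjusted p = 6.83e-05), with signals of 0.23 to 0.37 in B6 mice and 0.87 to 1.08 in BTBR/R mice. The clone probe is annotated to a cDNA clone under the name Extl1 and lies on the opposite strand of the genome from the other probes. Its signals were -1.32, -1.06, -1.08 and -1.04 in B6 mice and -2.03, -1.62, -1.94 and -1.81 in BTBR/R mice, which made it lower in BTBR/R mice by 0.72 on the log2 scale (difference -0.72, SE 0.105, adjusted p = 0.00112). Each of the 3 probes separated the strains, 2 of them upward and 1 downward. The mean of the 3 probes, the clone probe included, differed by 0.40 (adjusted p = 0.00176) and was not called. Whether the clone probe reads an Extl1 transcript was not tested.

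The core polymerase of HS did not pass the test. Ext1, a subunit of the polymerase, differed by -0.04 (95% confidence interval -0.21 to 0.13). Its partner Ext2 was detected on all 4 B6 arrays and on no BTBR/R array, at scaled signals of -4.10 to -3.33 and -3.82 to -3.43, and the strains overlapped. Extl3, which starts the HS chain on the linker, differed by 0.03, and Extl2 by -0.11.

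The 10 enzymes that modify the HS chain, all measured on all 8 arrays, included 1 that passed. This is a smaller share than the 28.4% of all gene names. Hs3st1, a 3-O-sulfotransferase known for making the antithrombin-binding motif of heparin, was lower in BTBR/R mice. Its brightest probe had signals of -0.03, -0.05, -0.19 and -0.11 in B6 mice and -0.72, -0.64, -0.43 and -0.57 in BTBR/R mice, without overlap. The gene was 1.41-fold lower (difference -0.49, SE 0.07, limma adjusted p = 0.00136). The neighbouring probe gave the same difference of -0.49 (SE 0.08, adjusted p = 0.00157), from -0.92 to -0.71 in B6 mice and from -1.40 to -1.14 in BTBR/R mice. The probes of Hs3st1 lie 60 bases apart and differed by 0.0032 in their estimate, the smallest spread of the 13 genes with more than 1 probe detected on all arrays.

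The other 9 modifying enzymes did not pass by their brightest probe, and their differences ran from -0.25 for Ndst3 to 0.14 for Hs2st1. The N-deacetylase/N-sulfotransferases, which make the first sulfation of the chain, differed by 0.08 (Ndst1), 0.09 (Ndst2), -0.25 (Ndst3) and 0.11 (Ndst4). A dimmer Ndst1 probe was higher in BTBR/R mice by 0.19 (limma adjusted p = 0.0129), which is a small change, and the mean of both probes passed (0.14, adjusted p = 0.0365). The difference between this probe and the brightest was not tested. The C5-epimerase Glce, the 6-O-sulfotransferases Hs6st1 and Hs6st2, and Hs3st2, a 3-O-sulfotransferase of neurons, differed by 0.12, 0.11, -0.07 and 0.07. The 2-O-sulfotransferase Hs2st1 did not overlap between strains by 2 of its probes, but these went opposite ways (0.14 and -0.13) and neither passed (adjusted p = 0.069 and 0.0793). Both passed under the methods' t-test and with limma's trend and robust options (adjusted p = 0.0389 and 0.0227 for the brightest).

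The genes that take HS apart outside the cell did not pass by their brightest probe. The endosulfatases Sulf1 and Sulf2, which remove 6-O-sulfates, differed by -0.10 and -0.07. Sulf2 did not overlap between strains, at 1.556 to 1.627 in B6 mice and 1.497 to 1.548 in BTBR/R mice (limma adjusted p = 0.211), and it passed with normexp background correction (-0.13, adjusted p = 0.0373) and under the methods' t-test (adjusted p = 0.031). Sulf1 had the lowest p of them, with signals of 0.15, 0.25, 0.16 and 0.09 in B6 mice and 0.02, 0.06, 0.15 and 0.04 in BTBR/R mice, and the strains overlapped (SE 0.05, limma adjusted p = 0.187). A second, dimmer Sulf1 probe was detected on all B6 arrays and on no BTBR/R array and passed (difference -0.88, adjusted p = 0.0382), with no fold for the reason given for Sdc1. Heparanase (Hpse), which cuts the chain, was detected on 4 B6 arrays and 1 BTBR/R array and overlapped between strains (difference 0.23, adjusted p = 0.241). It passed with normexp background correction (0.31, adjusted p = 0.00731) and was at 0.02 with a floor at the highest detection limit. Over all HS genes with a probe detected on every array, 1 of 27 rose and 3 fell, which is 14.8% against 28.4% of all gene names.

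Of the 12 CS genes, all with a probe detected on every array, 3 rose and none fell, which is 25.0% and close to the 28.4% of all gene names that passed. Of the 3, Ptprz1 did not hold under every alternative. Chsy1, a chondroitin synthase that lengthens the chain, had scaled signals of 0.44, 0.42, 0.41 and 0.54 in B6 mice and 0.77, 0.86, 0.78 and 0.75 in BTBR/R mice. The strains did not overlap, and Chsy1 was 1.26-fold higher in BTBR/R mice (difference 0.34, SE 0.05, limma adjusted p = 0.00139). The other enzymes did not pass. Csgalnact1, which starts the CS chain, differed by -0.01, and the 4-O-sulfotransferase Chst11 by -0.06.

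The 6-O-sulfotransferase Chst3 had the widest interval of the 39 genes. Its signals were -2.20, -2.62, -2.50 and -2.34 in B6 mice and -0.92, -2.23, -2.03 and -1.83 in BTBR/R mice. BTBR/R replicate 1, the oldest mouse, stood above the rest of its strain, and the difference of 0.66 (95% confidence interval 0.01 to 1.31) did not pass (limma adjusted p = 0.0998). Without this mouse the difference was 0.38 (adjusted p = 0.0694).

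Hapln4, a link protein of perineuronal nets known for its binding to brevican, had signals of -0.67, -0.58, -0.66 and -0.63 in B6 mice and -0.40, -0.30, -0.39 and -0.14 in BTBR/R mice. The strains did not overlap, and Hapln4 was 1.26-fold higher in the latter (difference 0.33, SE 0.07, limma adjusted p = 0.00718). The cartilage link protein gene Hapln1 and tenascin R (Tnr), which crosslinks the lecticans of nets, differed by -0.15 and -0.11 and did not pass, though Hapln1 did without B6 replicate 1 (-0.20, limma adjusted p = 0.0274).

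Ptprz1, a receptor phosphatase that carries CS chains and binds pleiotrophin, had signals of 3.56, 3.47, 3.41 and 3.44 in B6 mice and 3.67, 3.76, 3.69 and 3.66 in BTBR/R mice by its brightest probe. This probe was higher in BTBR/R mice (difference 0.22, SE 0.05, limma adjusted p = 0.0123). A second probe detected on all arrays, nearer to the 5′ end of the gene, overlapped between strains (difference -0.10, adjusted p = 0.233). With both probes averaged the difference was 0.06 (adjusted p = 0.343), and with a block for replicate number the brightest probe no longer passed (adjusted p = 0.0566). The 4 lecticans did not pass: brevican (Bcan), neurocan (Ncan), aggrecan (Acan) and versican (Vcan) differed by -0.06, 0.13, -0.08 and -0.08. Of these Ncan passed with spike-in scaling (limma adjusted p = 0.0382) and with the trend and robust options (adjusted p = 0.0393). The interval of aggrecan, the core of the nets, ran from -0.25 to 0.09.

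**Figure D3:**
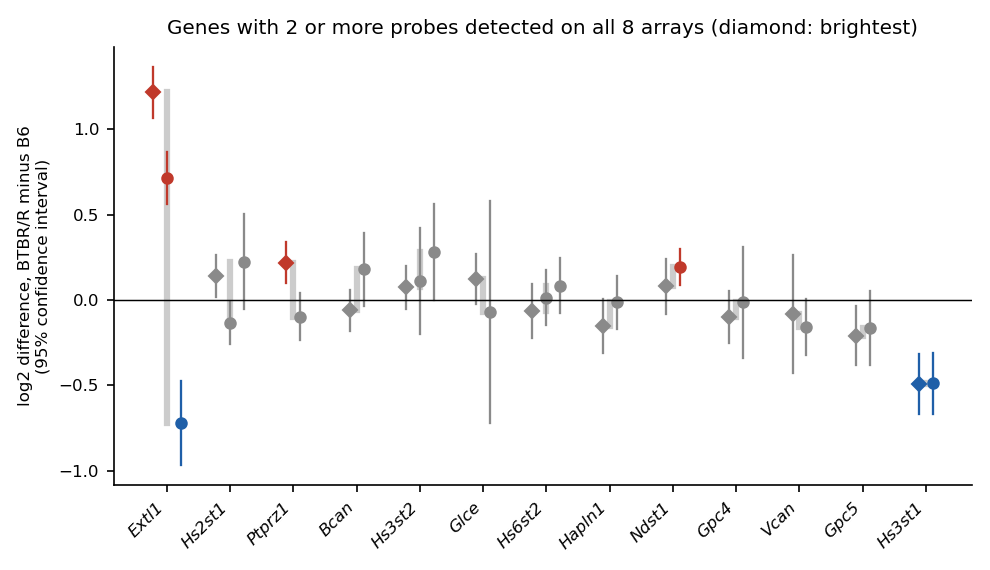
Log2 difference (BTBR/R minus B6) with 95% confidence interval of every probe of the 13 genes with 2 or more probes detected on all 8 arrays; diamonds are the brightest probes, red and blue mark higher and lower at an adjusted p below 0.05, and grey bars span the probes of a gene. Extl1 spans 1.94 with probes on both sides of 0, Hs2st1 0.36 and Ptprz1 0.32, and the other 10 genes span less than 0.3.

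In 13 genes at least 2 probes were detected on every array, and the median range of the difference between probes of a gene was 0.15. It was under 0.3 in 10 of these genes. The plot of probes by gene shows Extl1 as the widest, with a range of 1.94 that includes its clone probe. Hs2st1 and Ptprz1 had ranges of 0.36 and 0.32.

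Most of the calls among the 83 probes lay on dim probes. Of 9 called probes, 8 were higher and 1 was lower in BTBR/R mice, where 20.2% of all 56605 probes were called higher and 2.27% lower. The direction of the calls over all probes turned with the processing, from 11413 higher and 1284 lower to 231 and 332 with normexp background correction, 544 and 1656 with quantile normalization, 362 and 1195 without dim probes, and 276 and 513 with a floor at the highest detection limit. The calls on the 83 probes were then 1 higher and 0 lower, 2 and 2, 1 and 1, and 1 and 1. The 56 probes detected on all 8 arrays held 2 of the calls (Extl1 and Sdc4), against a background of 2.20%, and 11 of the 56 passed the test (6 higher and 5 lower), where 26.9% of all probes detected on every array passed. The 7 probes detected on no array held 5 calls, all higher in BTBR/R mice, on second or later probes of Gpc3, Gpc4, Hspg2, Hs3st2 and Chst3, where 67.7% of all probes detected on no array were called higher. No fold is given for these probes, since both strains were below background.

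The remaining 2 calls were on probes detected on 3 arrays or fewer. A probe of Glce annotated to a cDNA clone was detected on 1 B6 array and 2 BTBR/R arrays, with signals of -5.85 to -5.05 in B6 mice and -4.71 to -3.08 in BTBR/R mice. A probe of Hpse was detected on 1 BTBR/R array alone and overlapped between strains. The plot of difference against signal shows the dimmest probe detected on all 8 arrays at a mean scaled signal of -2.54.

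**Figure D4:**
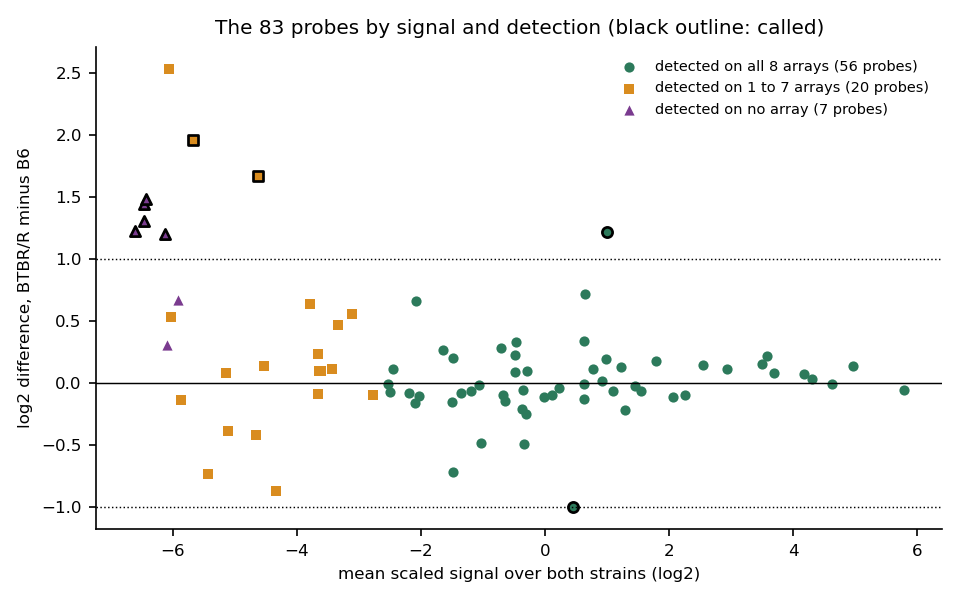
Log2 difference (BTBR/R minus B6) of each of the 83 probes against its mean scaled signal over both strains (log2), by the number of arrays on which it was detected; black outlines mark called probes and dotted lines a 2-fold change. Of the 9 called probes, 7 lie at the dim end and were not detected on all 8 arrays.

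Other genes of the same pathways were described from 7 lists with 83 genes, of which 73 had a representative probe detected on all 8 arrays. Of these 73 genes, 11 were higher and 11 were lower in BTBR/R mice, which is 30.1% against the background of 28.4%. Only Fgf9 was called, where 2.23% of all gene names with such a probe were called. Fgf9, a heparin-binding fibroblast growth factor made by neurons, had signals of 1.82, 1.79, 1.85 and 1.83 in B6 mice and 0.51, 0.52, 0.56 and 0.64 in BTBR/R mice. It was 2.40-fold lower in BTBR/R mice (difference -1.27, SE 0.05, limma adjusted p = 5.16e-06). Fgf9 had only this probe, and whether the strains differ in sequence under it was not tested. Representative probes of Hpse2, Chst13 and Has3 were also called, higher in BTBR/R mice, but were detected on no array. Of all probes detected on no array, 67.7% were called higher, and no fold is given.

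Among 16 HS-binding growth factors and receptors, 15 were measured, 1 rose (Fgf18, 0.52) and 3 fell, which is 26.7% against 28.4% of all gene names. Besides Fgf9, the lower genes were the heparin-binding cytokines pleiotrophin (Ptn, -0.22) and midkine (Mdk, -0.26), the first of which binds Ptprz1. The receptors Fgfr1, Fgfr2 and Fgfr3 differed by 0.07, 0.04 and 0.01, and the guidance genes Slit1, Slit2, Robo1 and Robo2 by -0.01 to 0.15, and none of them passed. The HS- and CS-binding phosphatases Ptprs and Ptprd differed by 0.06 and 0.16 and did not pass.

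Of the 7 HS enzymes outside the 42 genes, 5 were measured and 2 rose (40.0%, against 28.4% of all gene names), both 3-O-sulfotransferases: Hs3st6 by 0.79 (limma adjusted p = 3.38e-05) and Hs3st3b1 by 0.66 (adjusted p = 0.0322). Hs3st4 and Hs3st5 of the same family differed by 0.02 and 0.12 and did not pass. The Hs3st3b1 probe was dim, at a mean scaled signal of -3.23 in B6 mice. Detected scaled signals on the BTBR/R arrays started at -3.97 to -3.55.

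Of 10 measured CS and dermatan sulfate enzymes, 2 rose and 2 fell (40.0%, against 28.4% of all gene names). Chst14, the dermatan 4-O-sulfotransferase, rose by 0.75 (limma adjusted p = 0.00195) and Csgalnact2 by 0.16, while Dsel, a dermatan epimerase, differed by -0.31. The Chst14 probe was dim too, at a mean scaled signal of -3.13 in B6 mice. Chsy3, a paralog of Chsy1, was lower in BTBR/R mice (difference -0.69, adjusted p = 0.00745), so that the chondroitin synthases Chsy1 and Chsy3 went opposite ways. Among 12 measured genes of the linker and of the precursors, 2 rose (Ugdh and Slc35d1, 0.22 and 0.30) and 3 fell (B4galt7, B3galt6 and Papss2), which is 41.7%. Papss2, which makes the sulfate donor, had the largest of these differences at -0.42 (adjusted p = 0.0358).

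Of 14 further proteoglycan cores, all measured, 14.3% passed, where Cd44, a hyaluronan receptor, rose by 0.62 (limma adjusted p = 0.00047) and the testican Spock1 fell, with a difference of -0.21. Of 8 measured genes of hyaluronan and matrix turnover, 3 rose and none fell (37.5%): the hyaluronan synthase Has1 (0.39), the hyaluronidase Hyal2 (0.16) and the link protein Hapln3 (0.55, adjusted p = 0.00108). Of 9 lysosomal enzymes that degrade the chains, Naglu (-0.32) and Galns (-0.48) fell and none rose (22.2%). The share of all gene names was 28.4%, of which 13.9% were higher and 14.4% lower. The probes of Cd44 and Has1 were also dim, at mean scaled signals of -3.22 and -2.98 in B6 mice. For these dim probes, and for those of Hs3st3b1 and Chst14, no values under the alternatives are given.

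**Figure D5:**
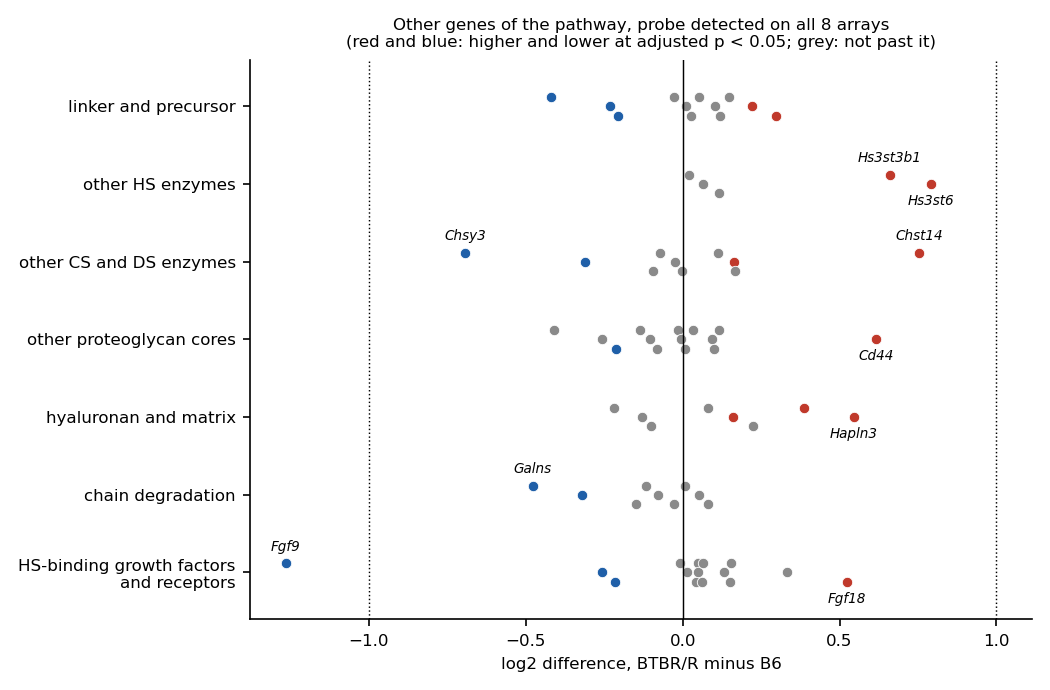
Log2 difference (BTBR/R minus B6) of the 73 other pathway genes with a representative probe detected on all 8 arrays, 1 row per list and 1 point per gene; dotted lines mark a 2-fold change. Fgf9 at -1.27 is the only point beyond 2-fold, and 11 points are red and 11 are blue.

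The labelled tissue was checked by marker genes. All 6 markers of striatal projection neurons and all 6 of cortical excitatory neurons were detected on all 8 arrays, and of these Neurod2 alone passed (0.19, limma adjusted p = 0.0406). Of the lists for other cells that the tissue could hold, with 6 markers each, every marker was detected on all arrays except the progenitor marker Top2a, and 6 of these lists had at most 1 marker that passed, among them C1ql1 of oligodendrocyte precursors (0.71), Foxj1 of ependyma (-0.81), Sox11 of progenitors (-0.33) and Cldn5 of endothelium (-0.51). For the astrocyte and oligodendrocyte lists, 2 of 6 markers passed, which is 33.3%, near the 28.4% of all gene names. The microglia list had a larger share than either. Of the astrocyte markers 2 fell (Aldh1l1, -0.31, and Aqp4, -0.28), and of the oligodendrocyte markers 2 fell (Mog, -0.35, and Mobp, -0.80). All 6 oligodendrocyte markers had lower means in BTBR/R mice, with differences from -0.80 to -0.07. Of the microglia markers 2 fell (Cx3cr1, -0.71, and Aif1, -0.25) and 1 rose (P2ry12, 0.22). The summed level of the list, in multiples of the 75th percentile of the array, was 69.1 to 75.1 in B6 mice and 61.5 to 75.1 in BTBR/R mice for astrocytes and 188.5 to 238.9 and 170.8 to 191.6 for oligodendrocytes. For endothelial and mural cells it was 16.8 to 17.9 in B6 mice and 13.1 to 15.7 in BTBR/R mice, without overlap. Of the 6 markers of this list 1 passed, and the differences ran from -0.51 to 0.05, with a median of -0.10. For choroid plexus and ependyma the summed level varied widely within each strain, from 3.74 to 42.3 in B6 mice and from 7.36 to 26.1 in BTBR/R mice. The part of these cells in the lower levels of Sdc4, Sdc2 and Hs3st1 was not tested.

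Finally, the genes were compared in features that had no part in their choice. Neurocan and Hapln4, which act in the same matrix, are neighbours on chromosome 8, with representative probes 3.1 kb apart, and Hapln4 passed while neurocan did not. Hapln1 and versican lie 100.7 kb apart on chromosome 13, and glypicans 3 and 4 lie 219.2 kb apart on the X chromosome. The reference promoters of RefSeq (GRCm38.p6, 250 bases before to 50 after the start) held 37 entries for 32 of the 42 genes. The GC box GGGCGG, searched on both strands, was in 27 of the 37 (73.0%), against 46.2% of the promoters of protein-coding genes and 35.7% of all promoters. The median GC content was 66.7% against 56.3% in protein-coding genes. The motif TATAAA was in 10.8% against 12.6%, and the E-box CACGTG in 8.11% against 7.84%. These are matches of letters and not sites of binding.

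The 250 bases before the start are printed for Sdc4, Extl1 and Hs3st1, the genes with the largest differences among those of the 42 that passed on probes detected on all 8 arrays, with GC boxes on the printed strand or its complement in capitals. Sdc4 held 4 in this stretch, and Extl1 and Hs3st1 held none.
Sdc4, chr2:164443189-164443438, minus strand: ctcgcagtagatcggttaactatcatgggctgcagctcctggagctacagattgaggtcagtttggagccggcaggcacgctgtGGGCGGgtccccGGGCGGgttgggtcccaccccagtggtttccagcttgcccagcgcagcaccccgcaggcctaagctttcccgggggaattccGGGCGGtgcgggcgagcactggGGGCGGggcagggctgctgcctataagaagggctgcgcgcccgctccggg
Extl1, chr4:134372548-134372797, minus strand: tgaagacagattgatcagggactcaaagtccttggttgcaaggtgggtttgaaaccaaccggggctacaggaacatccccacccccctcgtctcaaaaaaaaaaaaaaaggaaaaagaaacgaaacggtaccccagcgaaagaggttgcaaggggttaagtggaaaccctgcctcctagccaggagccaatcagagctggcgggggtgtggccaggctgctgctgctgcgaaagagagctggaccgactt
Hs3st1, chr5:39644632-39644881, minus strand: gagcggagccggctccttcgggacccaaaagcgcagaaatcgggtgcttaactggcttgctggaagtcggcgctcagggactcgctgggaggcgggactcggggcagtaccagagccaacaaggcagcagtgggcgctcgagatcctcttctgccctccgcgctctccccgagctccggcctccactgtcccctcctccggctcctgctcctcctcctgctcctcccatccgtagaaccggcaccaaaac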

How the data were processed

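RNA of each mouse was measured on 1-colour Agilent arrays. The authors deposited Feature Extraction (10.7.3.1) intensities of every spot, of which the processed signal is background subtracted and detrended, and log2 values from GeneSpring, which differed from them on the log2 scale by 1 constant for each array, within 0.01 for 99.972% to 99.989% of values. Here, control and outlier spots were left out and spots of a probe averaged, which left 56605 probes. Each array was scaled by its 75th percentile of the processed signal, and log2 values were tested with limma 3.58.1 in R 4.3.3. In data simulated for BTBR/R minus B6 over 56605 probes, the fit called 192 of 200 changed probes, and 4 that had not been changed. The number of arrays, and detection on dim probes, limit the precision. All arrays shared 1 slide and 1 scan.

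Genes and lists were chosen with earlier results of these data known. All 42 genes are named by their representative probe, and full values are given for called genes and the gene of lowest p in each role. Other pathway genes are named with full values where called and well above background in a strain. Further genes of the lists that passed, and of the same families, were named after their values were seen. Array names were matched to RefSeq by accession for 68 of 70 probes with one, and 13 probes had another accession. Alternatives were normexp (offset 50), quantile, median, detected-probe and spike-in (7 probes) scaling, the authors' log2 values, a filter on dim probes, the methods' t-test with Benjamini-Hochberg adjustment, limma's trend and robust options, a replicate block, leaving out each mouse and the mean of detected probes. A floor at the highest detection limit was added after seeing the data. Other steps used Python 3.11.15, pandas 2.3.3, numpy 2.4.6, scipy 1.17.1 and matplotlib 3.10.9.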

Additional observations from a re-analysis of the deposited data

Results flagged for a closer look

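In 86 groups of 4 mice (the representative probes of the 42 genes and of Fgf9, in each strain), 1 mouse stood apart from the other 3 by Dixon's gap test, which chance passes in about 1 of 20 groups. For Ndst2, BTBR/R replicate 3 was at -0.345, where the other BTBR/R mice lay between -0.2094 and -0.1939, a gap of 0.897 of the range. Ndst2 did not pass the strain comparison (difference 0.09, limma adjusted p = 0.219).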

How the results depend on the processing

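Of the 42 genes, 2 were called by their representative probe. This number was 3 with quantile normalization, which added Sdc1 (-1.18). It was 1 with normexp background correction and with spike-in scaling, where Sdc4 fell short of 2-fold (-0.94 and -0.89). It was also 1 with the mean of detected probes, where Extl1 fell short (0.40, with its clone probe included). It ranged from 1 to 2 when each mouse was left out. The number of called probes, 9, was 1 with normexp background correction, 4 with quantile normalization, 2 without dim probes, 2 with the floor at the highest detection limit, and 6 to 10 when each mouse was left out. Called genes of the other pathway lists numbered 4, and 1 with normexp background correction, 2 with quantile normalization, 1 without dim probes, 1 with the floor, 1 with the mean of detected probes, and 3 to 4 when each mouse was left out. The filter and the floor remove or level dim probes by construction, and for normexp and quantile the cause was not tested. Among probes detected on all 8 arrays 11 passed, and 9 to 15 did in the settings fitted by probe, which were not the same probes throughout. Spike-in scaling dropped Sdc2 and added Gpc1, Gpc2, Hs3st2 and Ncan.

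Replicate numbers did not pair the mice, which are different animals (correlations of deviations 0.0028, -0.0699, -0.0448 and 0.156). With the replicate block, 2 genes, 7 probes and 3 pathway genes were called and 9 probes detected on all arrays passed, without Sdc2, Ptprz1 and Ndst1 and with 1 of Hs3st2. The 8 genes that passed, Sdc1 included, kept their sign in 150 of 151 values, and the exception was Sdc1 at 0 with the floor. Detection limits the dim probes, above all on the BTBR/R arrays.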
